A study of Mus musculus with 51 samples.

Results

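The 10 genes described here encode proteins that spermatids use after meiosis: the protamines Prm1 and Prm2, the transition proteins Tnp1 and Tnp2, the acrosome proteins Acr and Acrv1, the testis-specific serine kinases Tssk2, Tssk3 and Tssk6, and the outer dense fibre protein Odf1. They were chosen by name as 10 of 20674 protein-coding genes on chromosomes 1 to 19. No measured value was used as a rule, but earlier results of these data were known when they were chosen. A gene was called in a peak list when a peak overlapped by at least 1 bp the window that reaches 500 bp upstream and 500 bp downstream of the start of one of its protein-coding transcripts, here called a 5′ end (GENCODE M21, mm10). The question was whether, and at which stage of meiotic prophase I, histone H3 trimethylated at lysine 4 (H3K4me3), the wider signal of an antibody against H3K4me2/3, or H3 acetylated at lysine 9 (H3K9ac) was called there. The working description of the set was that these genes are marked ahead of their use. No H3K4me3 peak was called at 7 of them, where 45.9% of all protein-coding genes had none. A gene without a peak may still carry the mark below the calling threshold, so that these 7 do not decide the description. No peak of any mark lay at the 5′ ends of 5 of the 10 genes in any of 20 lists, where 32.6% of all protein-coding genes had none. Transcription was not measured in these lists, so that "ahead of use" rests on the known timing of the genes and not on these data.

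All samples came from adult male mice of the C57Bl/6J strain with the wild-type genotype. Nuclei were extracted from formaldehyde-fixed whole testes and sorted by DNA content and by the nuclear proteins SCP3, STRA8, SCP1 and H1t into 5 successive stages, which are leptonema (LE), zygonema (ZY), early (EP) and late (LP) pachynema, and diplonema (DI). H3K4me3 was measured with an EpiCypher antibody in experiments 1 and 2 of each stage, which gave 10 lists. H3K4me2/3 was measured with an Abcam antibody in experiment 2 only, and H3K9ac in experiment 1 only, each with 1 list per stage. The antibody label of the 5 H3K9ac samples names H3K4me3 beside an Active Motif product, whereas their titles name H3K9ac. They are called H3K9ac here. The number of mice behind each library is not given in the labels, so that the spread between experiments 1 and 2 may be partly technical. The sorted populations are enriched for a stage and hold some nuclei of neighbouring stages. No round spermatids, in which these genes are at work, were among the samples.

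In mouse spermatogenesis the haploid spermatid replaces most of its histones, first with transition proteins and then with protamines, while the acrosome forms from Golgi vesicles and the flagellum is built. Many of the genes involved are transcribed from late meiosis or after it, and the messages of the protamines and transition proteins are stored before they are translated. H3K4me3 and H3K9ac are found at the promoters of active genes and at CpG-rich promoters in general, and in early meiotic prophase PRDM9 also places H3K4me3 at recombination hotspots away from promoters.

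The promoters of the protamine and transition protein genes are shown first, since no H3K4me3 peak was called at any of these 4 genes, together with those of 2 spermiogenesis genes at which peaks were called late in prophase. Dpy19l2 encodes a protein of the nuclear envelope that attaches the acrosome, and Odf4 a protein of the sperm tail. Each sequence ends at the base before the annotated start, runs 5′ to 3′ on the strand of the gene, and has the CpG dinucleotides in capitals. The sequences are those of RefSeq on GRCm38.p6, the assembly of mm10. The windows were chr16:10796887-10797073 for Prm1, chr16:10792106-10792355 for Prm2, chr1:73015910-73016149 for Tnp1, chr16:10788661-10788905 for Tnp2, chr9:24696294-24696543 for Dpy19l2 and chr11:68927082-68927331 for Odf4, all on the minus strand. Except for that of Tnp1, they overlapped no annotated exon. Prm1 and Prm2 each have a further annotated 5′ end farther upstream, at 10805839 and 10796134, so that their windows lie before the start shown here and inside the longer transcript. The Tnp1 window overlapped an exon of 1700027A15Rik, an antisense non-coding RNA.
Prm1: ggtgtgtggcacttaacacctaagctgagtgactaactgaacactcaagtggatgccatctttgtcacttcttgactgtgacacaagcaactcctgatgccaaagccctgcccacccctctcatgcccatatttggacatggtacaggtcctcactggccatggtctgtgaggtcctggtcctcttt
Prm2: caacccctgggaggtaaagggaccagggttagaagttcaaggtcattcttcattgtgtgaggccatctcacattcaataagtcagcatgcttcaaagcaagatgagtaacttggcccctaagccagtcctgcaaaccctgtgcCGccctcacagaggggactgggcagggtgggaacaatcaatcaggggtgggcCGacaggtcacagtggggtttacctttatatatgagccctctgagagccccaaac
Tnp1: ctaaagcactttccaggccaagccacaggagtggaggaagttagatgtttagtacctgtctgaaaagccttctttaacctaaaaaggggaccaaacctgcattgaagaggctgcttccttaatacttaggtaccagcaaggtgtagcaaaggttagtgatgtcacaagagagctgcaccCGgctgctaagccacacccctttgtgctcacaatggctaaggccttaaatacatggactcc
Tnp2: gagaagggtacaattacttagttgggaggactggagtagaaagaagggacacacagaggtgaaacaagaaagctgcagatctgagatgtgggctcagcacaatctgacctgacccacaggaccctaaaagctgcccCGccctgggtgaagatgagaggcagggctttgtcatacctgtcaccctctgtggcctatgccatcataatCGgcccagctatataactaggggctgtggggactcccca
Dpy19l2: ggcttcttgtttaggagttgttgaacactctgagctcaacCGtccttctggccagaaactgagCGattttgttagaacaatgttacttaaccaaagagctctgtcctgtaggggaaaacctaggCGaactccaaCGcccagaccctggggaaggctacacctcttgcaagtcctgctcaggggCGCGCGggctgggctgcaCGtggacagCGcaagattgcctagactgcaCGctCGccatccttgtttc
Odf4: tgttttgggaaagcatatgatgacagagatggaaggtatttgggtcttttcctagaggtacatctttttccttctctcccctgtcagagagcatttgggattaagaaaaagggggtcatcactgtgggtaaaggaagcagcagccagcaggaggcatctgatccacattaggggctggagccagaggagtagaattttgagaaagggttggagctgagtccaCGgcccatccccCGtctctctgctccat

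The 4 genes without an H3K4me3 call held few CpG. In the 250 bp upstream of the RefSeq start, the CpG count was 0 for Prm1 and 2 each for Prm2, Tnp1 and Tnp2. The printed stretches of Prm1, Tnp1 and Tnp2 stop before the GENCODE start and hold 187 bp, 240 bp and 245 bp. Not every CpG counted for Tnp1 is therefore printed. The count was 11 for Dpy19l2 and 2 for Odf4. Of the other genes of the set with a RefSeq promoter entry, Acrv1 had 0, Tssk2 had 4, Tssk3 had 9 and Tssk6 had 13. An entry was found for 8 of the 10 genes, and not for Acr and Odf1. Among 20085 promoters the median CpG count was 10, with quartiles of 3 and 19. The 5342 promoters of genes with no peak in any list had a median of 2, and the 3794 promoters of genes with an H3K4me3 peak in all 10 libraries had a median of 20. The 6 genes Prm1, Prm2, Tnp1, Tnp2, Acrv1 and Tssk2 therefore lay at or below 4 CpG. The RefSeq start of Tssk3 lies 252 bp downstream of the GENCODE 5′ end used for the calls, so that its window lay within the gene and not in the upstream stretch that held its peaks. For the other 7 genes the starts differed by at most 63 bp. These counts are descriptions of 8 promoters, and no test was made.

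Short motifs were searched on both strands of the same 250 bp. TGACGTCA, the palindrome that CREM and CREB bind, was found at 0 of the 8 promoters with an entry, and at 1.98% of all 20085 promoters. Its shorter part TGACG, which any match of the palindrome also contains, was found at Tssk6 and at 20.5% of all promoters. TATAAA was found at Prm2, on the opposite strand, and at 11.7% of all promoters. CCAAT was found in the Tssk3 window, which lies within the gene, also on the opposite strand, and at 35.3% of all promoters. GTTGCC, part of the site bound by RFX factors, was found at 0 of the 8 and at 10.1% of all promoters. A match describes the letters only, and the windows hold 250 bp of longer regulatory regions.

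The lists differed in length. H3K4me3 lists held 4883 to 15699 peaks, H3K4me2/3 lists 17561 to 30943, and H3K9ac lists 516 to 16003, of 238528 in all. The lists give intervals with no score or read count, so that depth is unknown and a gene without a peak may still carry the mark below the calling threshold. The sorting markers served as a check of the stage labels. Stra8, the marker used to sort leptonema, was called in both leptonema H3K4me3 libraries and in no later one. Sycp3, which encodes SCP3, was called in all 10 libraries and Sycp1 in 8. Hist1h1t, which encodes H1t, the marker of the later stages, was called in leptonema experiment 1 and zygonema experiment 2 and in no later H3K4me3 library. Its calls thus did not follow the stages sorted for the protein. Of 6 marker genes of somatic testis cells, 4 were not called in any H3K4me3 library. The Sertoli cell gene Sox9 had a peak in leptonema experiment 2 and the Leydig cell gene Insl3 in diplonema experiment 2. Their part in any result was not tested.

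Over the 10 genes and 10 H3K4me3 libraries, 9 of 100 possible calls were made. In 7 of the 10 genes there was no H3K4me3 peak in any library, where 45.9% of all protein-coding genes had none. By both libraries of a stage, Tssk6 was called at leptonema and at zygonema and Acr at diplonema. From leptonema to diplonema this made 1, 1, 0, 0 and 1 gene of 10. The corresponding shares of all genes were 38.1%, 32.3%, 24.9%, 25.8% and 28.6%. At each stage the share among the 10 genes was thus below that of all genes, and no test was made of 10 genes chosen by name.

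**Figure D1:**
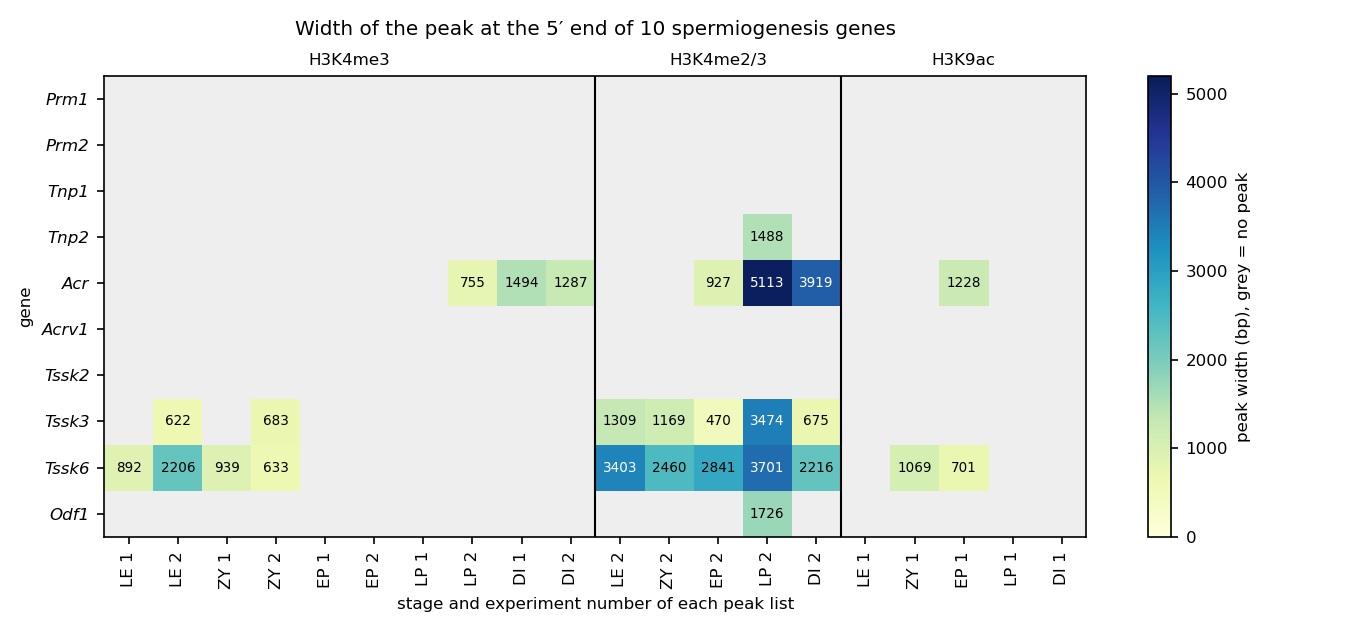
Width in bp of the peak at the 5′ end of each of the 10 genes (rows) in each of the 20 lists (columns, by mark, stage and experiment number), with grey where no peak was called. H3K4me3 was called at Acr, Tssk3 and Tssk6 only, and the late pachynema H3K4me2/3 list held peaks at 5 genes.

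With the H3K4me2/3 antibody, 15 of 50 possible calls were made. In the order of the stages, the called genes numbered 2, 2, 3, 5 and 3. Of all genes, 64.7%, 59.4%, 53.7%, 55.4% and 53.3% were called at these stages. Late pachynema was thus the stage at which most of the 10 genes were called, at 5 of 10 and close to the share of all genes. H3K9ac was called in 3 of 50 cases, at 0, 1, 2, 0 and 0 genes from leptonema to diplonema. The shares of all genes were 14.7%, 41.1%, 35.3%, 8.28% and 1.99%. The H3K9ac lists of late pachynema and diplonema held 1727 and 516 peaks, and few genes of any kind could be called in them.

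The protamines package DNA in the sperm head. Prm1 (ENSMUSG00000022501.6) and Prm2 (ENSMUSG00000038015.6), both on the minus strand of chromosome 16, had no peak at a 5′ end in any of the 20 lists. Tnp2 (ENSMUSG00000043050.8) encodes a transition protein and lies in the same cluster. It had no H3K4me3 or H3K9ac peak, and had an H3K4me2/3 peak of 1488 bp at late pachynema only. This peak, chr16:10788062-10789549, covered the Tnp2 5′ end from 889 bp upstream to 598 bp downstream and no 5′ end of another gene. Of all genes, 0.624% (129 of 20674) were likewise called by H3K4me2/3 at late pachynema and at no other stage. With a window of 1000 bp, Tnp2 was called in 2 H3K4me2/3 lists. In the diplonema list, the 4376 bp peak at the neighbouring gene Socs1 ended 783 bp downstream of the Tnp2 5′ end. Prm3, the protamine-related gene between Prm2 and Tnp2, had no peak in any list.

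Across the 8227 bp from the Tnp2 to the Prm1 5′ end, 1 of 20 lists held a peak, and that was the Tnp2 peak. At 3124 bp on the far side of Tnp2, the cytokine signalling inhibitor Socs1 had a peak at its 5′ end in 14 of 20 lists. The Socs1 peak was 665 bp and 1872 bp wide in the H3K4me3 libraries of leptonema, 181 bp and 1241 bp at zygonema, 1326 bp and 1966 bp at late pachynema, and 2348 bp and 2861 bp at diplonema. It was not called in the H3K4me3 libraries of early pachynema. The protamine genes, without a call, thus lay beside a gene that was called in 8 of the 10 H3K4me3 libraries. The nearest H3K4me3 peak to Prm1 lay between 10110 bp and 369691 bp from its 5′ end, with a median of 10942 bp over the 10 libraries.

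**Figure D2:**
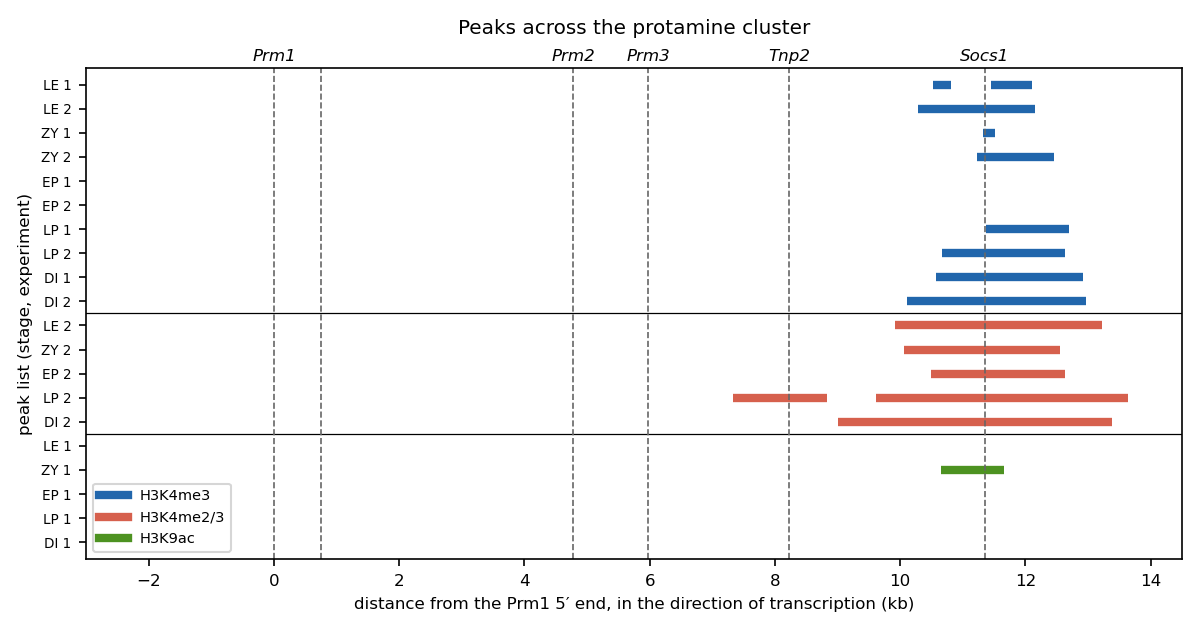
Peaks of the 20 lists (rows) along the protamine cluster, by distance in kb from the Prm1 5′ end in the direction of transcription, with dashed lines at annotated 5′ ends (the unlabelled line is a further 5′ end of Prm2). Between Prm1 and Tnp2 there is 1 peak, at Tnp2 in the late pachynema H3K4me2/3 list, and most lists have a peak at Socs1.

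Tnp1 (ENSMUSG00000026182.6), the other transition protein gene, lies on chromosome 1 and had no peak at its 5′ end in any list. Its nearest H3K4me3 peak lay 124772 bp away or more. In the H3K4me2/3 list of early pachynema a peak of 152 bp lay 2888 bp upstream, and in the other stages the nearest was 70158 bp or farther. The 5′ end of the antisense RNA 1700027A15Rik lies 127 bp upstream of that of Tnp1, and neither end therefore lay under a called peak.

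The acrosome genes differed from each other. Acr (ENSMUSG00000022622.5) encodes acrosin, the serine protease of the acrosome, and lies on the plus strand of chromosome 15 with its 5′ ends from 89568326 to 89568383. No H3K4me3 peak was called there in the 6 libraries up to early pachynema or in late pachynema experiment 1. The peak was 755 bp wide in late pachynema experiment 2, 1494 bp in diplonema experiment 1 and 1287 bp in diplonema experiment 2. The diplonema peaks were chr15:89567438-89568931 and chr15:89567689-89568975. The calls therefore fell in 3 of the 6 libraries after zygonema and in 0 of the 4 before, and the other 3 late libraries had none, with a Fisher exact p of 0.2.

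With the H3K4me2/3 antibody Acr had no peak at leptonema and zygonema, and peaks of 927 bp at early pachynema, 5113 bp at late pachynema and 3919 bp at diplonema. The last 2 were wider than 99.3% and 95.8% of the peaks of their lists, counted as the percentile of width. H3K9ac was called at Acr only at early pachynema, with a peak of 1228 bp. The earliest calls at Acr were thus those of H3K4me2/3 and H3K9ac at early pachynema, and H3K4me3 was called from late pachynema in experiment 2 and from diplonema in experiment 1. H3K4me2/3 and H3K9ac had 1 library per stage, and their lists at early pachynema (17561 and 7744 peaks) were longer than the H3K4me3 lists (6647 and 4883 peaks). No annotated 5′ end of another gene lay within 6 kb of Acr, and every Acr peak covered an Acr 5′ end.

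Diplonema was compared with the other stages by a two-sided Fisher exact test on the 10 H3K4me3 libraries, which for called and not called libraries is the exact permutation test over 45 splits. Acr was called in 2 of 2 diplonema libraries and in 1 of 8 others, with an exact p of 0.0667 and an adjusted p of 1 (Benjamini-Hochberg over 20674 genes). In this design the smallest p is 0.0222. With the percentile of peak width in place of a call, and 0 where there was no peak, the mean was 83.1 at diplonema and 8.1 elsewhere, with an exact permutation p of 0.0222 and an adjusted p of 0.654. The difference in calls at Acr did not pass the test.

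Acrv1 (ENSMUSG00000032110.4) encodes a protein of the acrosomal matrix and lies on the plus strand of chromosome 9. It had no peak at its 5′ end in any list. The nearest H3K4me3 peak was 33069 bp away or more, at the checkpoint kinase gene Chek1 in 3 libraries of leptonema and zygonema. In the late pachynema H3K4me2/3 list a peak of 455 bp lay 1210 bp downstream of the Acrv1 5′ end. Of the pair of acrosome genes, Acr thus had 7 calls and Acrv1 had 0 calls in 20 lists.

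The kinase genes also differed. Tssk6 (ENSMUSG00000047654.6), a kinase of the spermatid needed for sperm function, lies on the plus strand of chromosome 8 with its 5′ end at 69902184. It had H3K4me3 peaks of 892 bp and 2206 bp at leptonema and of 939 bp and 633 bp at zygonema, for experiments 1 and 2. No call was made in the 6 libraries that followed zygonema. The 4 early and 6 late libraries thus did not overlap, with 4 of 4 called against 0 of 6. The two-sided Fisher exact test gave p = 0.00476, which is the smallest value that the 210 splits of 4 and 6 libraries allow, and an adjusted p of 0.693.

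Adjusted over all genes, no call was possible with few genes at the smallest p. Of all genes, 0% (0 of 20674) passed an adjusted p of 0.05 between early and late libraries in either direction, and 1969 genes at the smallest p would have been needed. At an unadjusted p under 0.05, 412 genes were called more often in leptonema and zygonema and 117 more often later. With lists of equal size the order turned, to 141 and 783. Leaving out 1 library gave 261 early genes without leptonema experiment 2 and 777 without diplonema experiment 2, and 178 and 211 late genes without early pachynema experiments 1 and 2. Calling by both leptonema libraries and by no library after zygonema was seen in 2.19% of all genes. Tssk6 was 1 of these. A total of 105 other genes had the same pattern over the 10 H3K4me3 libraries as Tssk6.

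The Tssk6 pattern depended on the width of the window. In the libraries of early pachynema experiment 1, late pachynema experiment 1 and diplonema experiment 2, H3K4me3 peaks of 153 bp, 168 bp and 199 bp lay 596 bp, 572 bp and 585 bp upstream of the Tssk6 5′ end. They were outside the 500 bp window. With a window of 1000 bp, Tssk6 was called in 4 of 4 early and 3 of 6 late libraries. The peaks of leptonema and zygonema reached from 698 to 972 bp upstream, and covered the 5′ end in 3 of 4 libraries. In zygonema experiment 2 the peak ended 66 bp before it. The same upstream stretch thus held a peak in 7 of 10 libraries, and the later peaks were narrower than any of the early ones.

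The other marks were also called at Tssk6 at later stages. H3K4me2/3 peaks were 3403 bp, 2460 bp, 2841 bp, 3701 bp and 2216 bp wide from leptonema to diplonema, with a call at each of the 5 stages. H3K9ac peaks were 1069 bp wide at zygonema and 701 bp at early pachynema, both upstream of the 5′ end, and absent at leptonema, late pachynema and diplonema. The 5′ ends of Ndufa13, a subunit of mitochondrial complex I, and of Yjefn3 lie 374 bp and 528 bp downstream of that of Tssk6. The 5 H3K4me2/3 peaks and the H3K4me3 peak of leptonema experiment 2 covered all 3 genes, and cannot be assigned to Tssk6 alone. By contrast, the H3K4me3 peaks of leptonema experiment 1 and zygonema experiment 1 covered only the Tssk6 5′ end.

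Tssk3 (ENSMUSG00000000411.7), another spermatid kinase, lies on the minus strand of chromosome 4 with its 5′ end at 129491022. Its H3K4me3 peaks were 622 bp wide in leptonema experiment 2 and 683 bp wide in zygonema experiment 2, and no other H3K4me3 library had a call. Within the 500 bp window experiment 1 therefore showed none at either stage, and no stage was called by both libraries. Peaks farther upstream lay at 531 bp in leptonema experiment 1, at 656 bp in late pachynema experiment 2 and at 657 bp in diplonema experiment 2. With a window of 1000 bp, Tssk3 was called in 3 of 4 early and 2 of 6 late libraries, and leptonema by both. The Fisher exact test of 2 of 4 against 0 of 6 gave p = 0.133 and an adjusted p of 1. H3K4me2/3 peaks were called at all 5 stages, with widths of 1309 bp, 1169 bp, 470 bp, 3474 bp and 675 bp, and H3K9ac at none.

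The peaks at Tssk3 lay mostly upstream of it. Fam229a, a gene of the opposite strand, has 5′ ends 168 bp and 218 bp upstream of that of Tssk3. Both H3K4me3 peaks ended before the Tssk3 5′ end, at 198 bp and 248 bp upstream. Of the 5 H3K4me2/3 peaks, 3 covered the Tssk3 5′ end, and those of early pachynema and diplonema ended 291 bp and 160 bp upstream. With a window of 100 bp, Tssk3 was called in 0 H3K4me3 libraries and 3 H3K4me2/3 lists. The calls at Tssk3 thus fell on the region it shares with Fam229a.

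**Figure D3:**
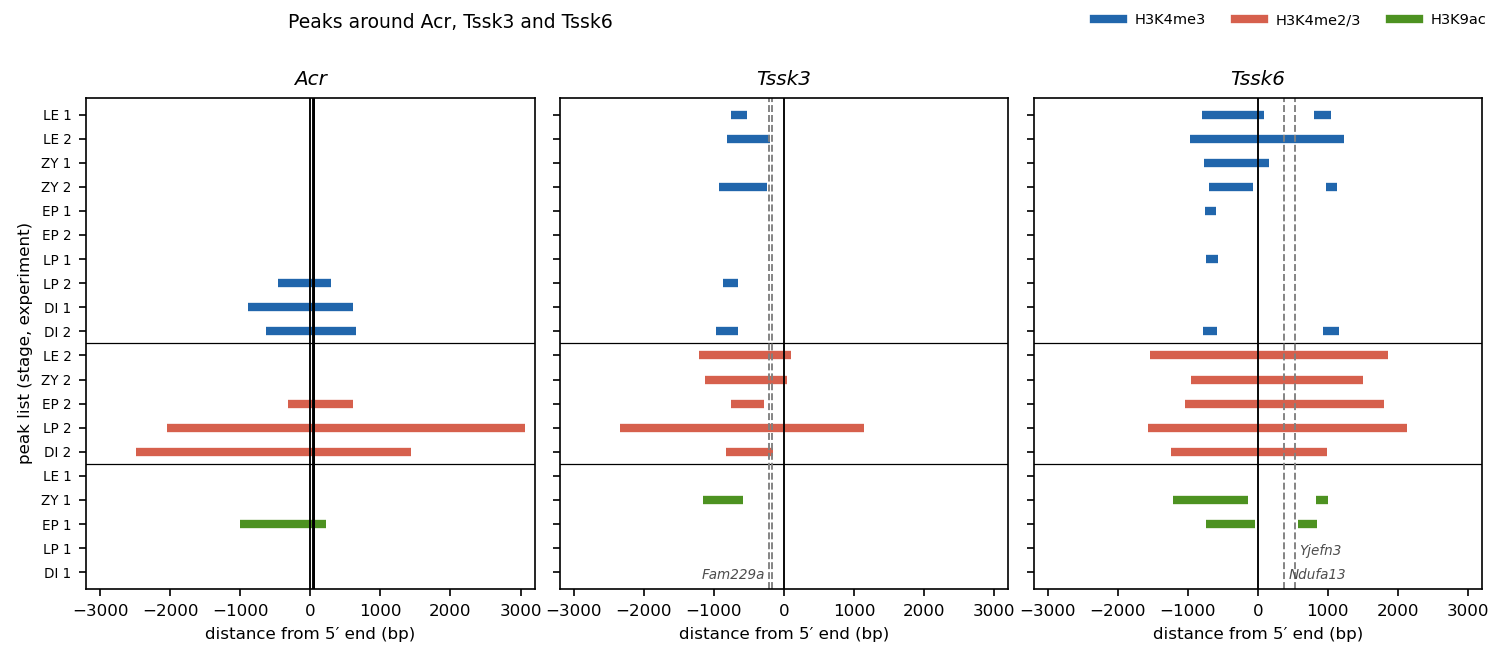
Peaks of the 20 lists (rows) around the 5′ ends of Acr, Tssk3 and Tssk6, by distance in bp in the direction of transcription, with black lines at the 5′ ends of the named gene (Acr has 4, close together) and dashed lines at those of other genes. Peaks are centred near the 5′ end at Acr, lie upstream at Tssk3 beside Fam229a, and run across Ndufa13 and Yjefn3 at Tssk6 in the H3K4me2/3 lists.

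Tssk2 (ENSMUSG00000045521.7) lies on the plus strand of chromosome 16 near 5′ ends of the gene Dgcr2 and had no peak at its 5′ end in any list. A 5′ end of a Dgcr2 transcript is annotated 75 bp upstream. The nearest H3K4me3 peaks lay at or next to the main Dgcr2 5′ end, 6803 bp to 7113 bp upstream, in 9 of 10 libraries. In the late pachynema H3K4me2/3 list a peak of 1056 bp lay 2179 bp upstream and covered no annotated 5′ end. Tssk1, the related kinase 4414 bp upstream of Tssk2, had no peak at its 5′ end in any list.

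Odf1 (ENSMUSG00000061923.4) encodes a main protein of the outer dense fibres along the sperm tail and lies on the plus strand of chromosome 15. It was called in 1 of 20 lists, by H3K4me2/3 at late pachynema. This peak of 1726 bp, chr15:38219698-38221423, began 495 bp downstream of the Odf1 5′ end and was at the limit of the 500 bp window. With a window of 100 bp or a minimum overlap of 250 bp, Odf1 had no call. The nearest H3K4me3 peak was 21161 bp away or more. Tnp2 and Odf1 had the same calls over the 20 lists, and Odf1 was 1 of 124 genes with the calls of Tnp2.

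The late pachynema H3K4me2/3 list accounted for the only calls at Tnp2 and Odf1, for the widest H3K4me2/3 peaks at Acr, Tssk3 and Tssk6, and for the peaks 1210 bp and 2179 bp from Acrv1 and Tssk2. It is 1 library, held 19711 peaks with a median width of 1121 bp, and was neither the longest list nor the one with the widest median among the 5. Diplonema, with 18191 peaks and a median of 1294 bp, had none of the calls at Tnp2 and Odf1 in the 500 bp window. Without the late pachynema list, H3K4me2/3 was called in 10 of 40 cases at 3 genes. With no second library, it cannot be told apart whether the stage or this library carried these peaks.

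A wider set of 48 spermiogenesis genes in 5 lists by role was described beside the 10. Of the 48 genes, 18 had no peak in any of the 20 lists, or 37.5%, where 32.6% of all protein-coding genes had none. In H3K4me3, 23 of 48 had no call in any of 10 libraries, close to the 45.9% of all genes, and 12 were called in all 10, where 18% of all genes (3719 of 20674) were. A further 6 were gained after leptonema, meaning that neither leptonema library and both libraries of a later stage called them. The gained pattern was seen in 2.68% of all genes (554 of 20674). By both libraries of a stage, 17, 15, 16, 18 and 20 of the 48 were called from the earliest to the latest stage. Among the 10 genes, 7 were never called, 0 were called in all 10 libraries, and 1, Acr, was gained.

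**Figure D4:**
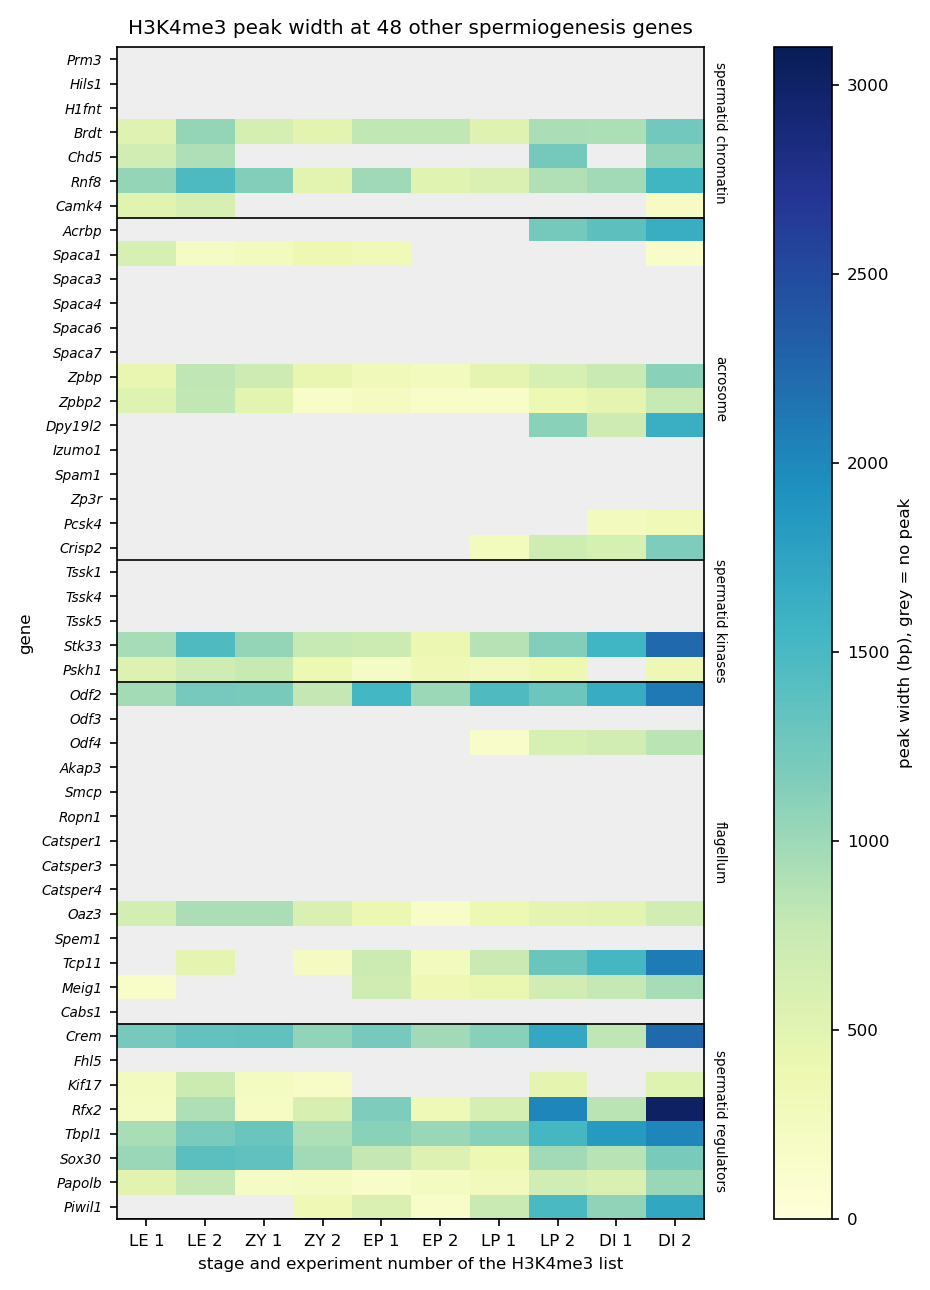
Width in bp of the H3K4me3 peak at the 5′ end of 48 other spermiogenesis genes (rows, by list) in the 10 libraries (columns, by stage and experiment number), with grey where no peak was called. Most genes are either grey across all stages or called across them, and Acrbp, Dpy19l2, Pcsk4, Crisp2, Odf4 and Piwil1 are called only after leptonema.

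The counts by role are given as descriptions of small lists, with no test between them, beside 45.9% of all genes never called and 18% called in all 10 libraries. Of 8 regulators of spermatid gene expression, 5 were called by H3K4me3 in all 10 libraries. These were Rfx2, Tbpl1, Sox30, Papolb and Crem, the last of which encodes a transcription factor of the protamine and transition protein genes. On the same list, Fhl5 was called in 0 libraries, Kif17 in 6, of which 4 were of leptonema and zygonema, and Piwil1 in 7. Of 14 flagellum genes, 9 had no H3K4me3 call, among them the sperm calcium channel genes Catsper1, Catsper3 and Catsper4, and 2 were called in all 10 libraries. Of 14 acrosome genes, 7 had no call, 2 were called in all libraries and 4 were gained. Spaca1, also of this list, was called in 6 libraries, among them both of leptonema and of zygonema, and in neither of late pachynema. Of 5 kinase genes, 3 had none, which were Tssk1, Tssk4 and Tssk5, while Stk33 was called in 10 libraries and Pskh1 in 9. Of 7 spermatid chromatin genes, Prm3, Hils1 and H1fnt, which encode structural proteins of spermatid chromatin, had none, and Brdt and Rnf8, which act on its histones, were called in all 10 libraries. Chd5 and Camk4, of the same list, had 4 and 3 calls. Both were called in the leptonema libraries, with peaks of 667 bp and 897 bp at Chd5 and 515 bp and 607 bp at Camk4. Neither was called at zygonema or early pachynema. Later calls were in late pachynema experiment 2 for Chd5 and in diplonema experiment 2 for both. A gene was called through any of its annotated 5′ ends, and their number differed. Crem has 21, from 3281078 to 3337748, and Prm3, Hils1 and H1fnt have 1 each, as do Sox30 and Papolb. The part of this number in the counts was not tested.

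The 6 gained genes gave the nearest match to Acr. Acrbp, which encodes the binding protein of proacrosin, had H3K4me3 peaks of 1232 bp in late pachynema experiment 2 and of 1379 bp and 1631 bp at diplonema, in the same 3 libraries as Acr. Dpy19l2 had peaks of 1112 bp, 711 bp and 1620 bp in these 3 libraries. Pcsk4, a proprotein convertase of sperm, had peaks of 266 bp and 325 bp at diplonema. Crisp2, a protein of the acrosome and tail, had peaks of 258 bp, 692 bp, 619 bp and 1165 bp in the libraries of late pachynema and diplonema, and Odf4 had peaks of 160 bp, 623 bp, 678 bp and 842 bp there. Piwil1, which binds pachytene piRNAs, was called from zygonema experiment 2 onwards, in 7 libraries.

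Acr, Acrbp and Dpy19l2 thus shared their 10-library pattern, and Acrbp and Dpy19l2 were among 217 genes with the pattern of Acr. The 5′ ends of other genes lay 96 bp from Acrbp, 455 bp from Pcsk4 and 145 bp from Piwil1, so that these peaks may belong to either gene. At Dpy19l2, Crisp2 and Odf4 the nearest was 71097 bp, 16620 bp and 19029 bp away. The 6 genes and Acr each had H3K4me2/3 peaks at early pachynema, late pachynema and diplonema.

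The order of the marks differed among these genes. Acrbp, Dpy19l2, Pcsk4, Crisp2 and Piwil1 had an H3K4me2/3 peak at leptonema already, of 1994 bp, 1121 bp, 1524 bp, 463 bp and 730 bp. At Odf4, as at Acr, H3K4me2/3 and H3K9ac were first called at early pachynema, with an H3K4me2/3 peak of 1291 bp and an H3K9ac peak of 848 bp at Odf4. Of the 554 genes gained in H3K4me3, 80% had an H3K4me2/3 peak at leptonema and 83% at early pachynema. Of all genes, 64.7% and 53.7% had one. All genes include the 9486 with no H3K4me3 call in 10 libraries, of which 25.7% and 9.34% had one. The gained genes were picked for having H3K4me3 calls, so that their higher shares do not show earlier marking than at other genes with H3K4me3. The H3K4me2/3 antibody gave longer lists than the H3K4me3 antibody at every stage, and the part of list length in this order was not tested.

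H3K4me2/3 at late pachynema and at no other stage was called at Hils1, Spaca4 and Akap3 among the 48 genes, as at Tnp2 and Odf1. Hils1, a spermatid linker histone, had a peak of 2325 bp. Spaca4, a sperm membrane protein of the acrosome, had one of 1156 bp, and Akap3, an anchoring protein of the fibrous sheath, one of 644 bp. None of the 5 genes had H3K4me3 or H3K9ac peaks in any list.

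The CpG counts of the wider set varied with the calls. Of the 48 genes, 40 had a RefSeq promoter entry. The 20 with no H3K4me3 call had a median of 1 CpG and a range from 0 to 7. The 9 called in all 10 libraries had a median of 19 and a range from 4 to 30, where Zpbp, which encodes a zona pellucida binding protein of the acrosome, had the lowest count. The 5 gained genes had a median of 11 and a range from 2 to 16. Odf4 with 2 and Crisp2 with 4 were within the range of the uncalled genes, and were called in 4 libraries each. A low CpG count was therefore found at most uncalled genes and at some called ones. No test was made of these counts.

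**Figure D5:**
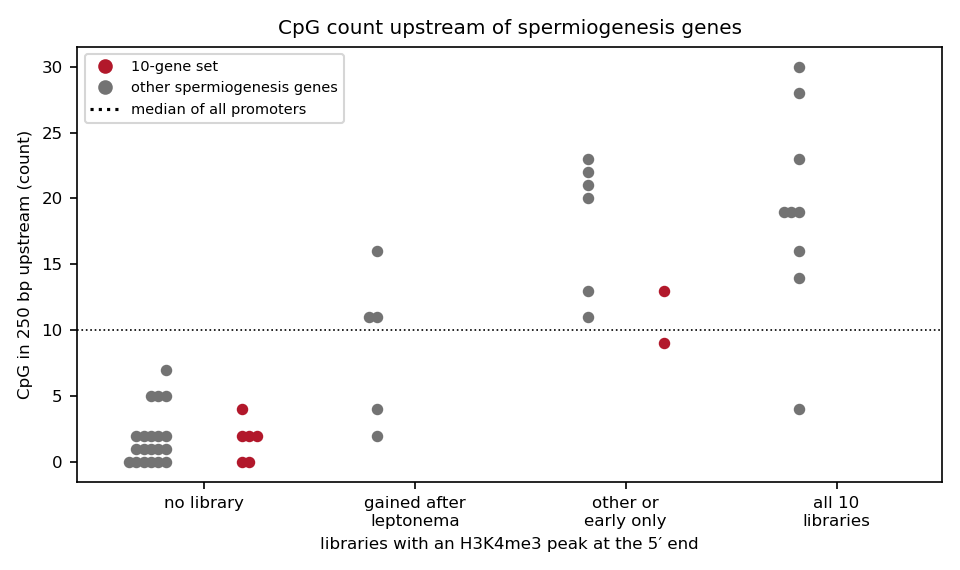
Number of CpG in the 250 bp upstream of the RefSeq start (vertical axis) of the 10-gene set (red, 8 genes with an entry) and of other spermiogenesis genes (grey, 40 with an entry), grouped by the libraries with an H3K4me3 peak, with the median of all promoters as a dotted line at 10 (the window of Tssk3, at 9, lies within the gene). Genes called in no library lie at 7 or below, and the lowest gained gene is Odf4 at 2.

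The 7 genes without any H3K4me3 call gave no information on agreement beyond the absence of calls, and of the 3 called genes, Tssk6 had the same calls in both experiments and Acr and Tssk3 did not. The 2 H3K4me3 libraries of a stage gave the same call at 9 of 10 genes at leptonema, zygonema and late pachynema and at 10 of 10 at early pachynema and diplonema. Over all genes the agreement was 91.2%, 93.2%, 91.1%, 85.4% and 82.5% from leptonema to diplonema. Within experiment 1, Tssk6 was called in 2 of 2 early and 0 of 3 late libraries, and within experiment 2 likewise. Acr was called in 0 of 2 early and 1 of 3 late libraries of experiment 1, and in 0 of 2 and 2 of 3 of experiment 2. In the 500 bp window the calls at Tssk3 came from experiment 2, and with 1000 bp also from leptonema experiment 1.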

How the data were processed

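The data were 20 lists of ChIP-Seq peaks from stage-sorted mouse testis nuclei, 1 list per library. The authors aligned reads to mm10 with BWA mem 0.7.12 and called peaks with MACS2 2.1.2 in broad mode per library, against stage-matched input for H3K4me3 (the control for H3K9ac is not given in the sources used here). The deposited values are the coordinates of each peak, with no score, signal or read count, so that depth and precision per call are unknown. Lists differ in length, and the part of depth or purity in this was not tested. The 31 samples without a list were not analysed here.

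Calls, Fisher exact tests and Benjamini-Hochberg adjustment over 20674 genes were computed with Python 3.11.15, numpy 2.4.6 and scipy 1.17.1, with a threshold of 0.05, and 24 genes whose symbol has more than 1 identifier were left out. Other windows, overlaps, list lengths, transcript sets and libraries were tried as alternatives. The tests were checked on simulated calls. With 200 planted genes, 0 passed the adjusted threshold, and with 3000, all 3000 did. Both outcomes follow from the 1969 genes needed at the smallest p, and the simulated calls were independent between libraries. They check the computation only, and not how the test behaves on these data. The 10 genes, the lists by role and the tests were chosen with earlier results of these data known. Named genes were the 10, Prm3, Tssk1, genes under a peak of the 10, and listed genes that gained or lost H3K4me3 against leptonema. Lost means called by both leptonema libraries and by neither library of a later stage, as at Chd5, Camk4, Spaca1 and Kif17. Crem, Rfx2, Tbpl1, Sox30, Papolb, Fhl5, Brdt, Rnf8, Hils1, H1fnt, Catsper1, Catsper3, Catsper4, Tssk4, Tssk5, Stk33, Pskh1, Spaca4, Akap3, Zpbp, Socs1 and Chek1 were named after their values were seen.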

Additional observations from a re-analysis of the deposited data

How the results depend on the processing

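The calls of the 10 genes were recomputed under other windows, overlaps, list lengths and libraries. The 9 H3K4me3 calls became 15 with a window of 1000 bp, through Tssk3 and Tssk6. With the genes that have no other 5′ end within 1000 bp, 3 of the 10 remained (Tnp2, Acr and Odf1). They gave 3 H3K4me3 calls, 1 gene called by both libraries of a stage, 2 genes never called, 5 H3K4me2/3 calls and 1 H3K9ac call. With lists cut to equal size, the 516 widest peaks of each H3K9ac list, H3K9ac calls fell to 0. Without each H3K4me3 library in turn, the H3K4me3 calls ranged from 7 to 9, genes called by every library left of a stage from 2 to 3, and genes never called stayed at 7.

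Between early and late libraries, and between diplonema and the rest, 0 genes passed the adjusted threshold in every setting run. With all 10 libraries the smallest Fisher exact p was 0.00476 and 0.0222, at which an adjusted call would need very many genes. These zeros therefore do not measure how stable the result is. The counts at an unadjusted p under 0.05 moved, from 412 early and 117 late genes to 141 and 783 with equal list sizes. Between diplonema and the rest they were 84 more often and 9 less often called, and 302 and 16 without late pachynema experiment 2. Correlations of deviations by experiment number between stages ran from -0.21 to 0.45, with 2 of 10 over 0.1. The value of 0.45 was that of late pachynema with diplonema, -0.21 that of early with late pachynema and -0.19 that of early pachynema with diplonema. Deviations thus went together by experiment number at late pachynema and diplonema, and little between most other stages. Experiment 2 lists were longer than those of experiment 1 at late pachynema (9124 against 5189 peaks), diplonema (12071 against 6645) and leptonema (13095 against 9528). They were shorter at early pachynema (4883 against 6647) and zygonema (11314 against 15699). The part of list length in these correlations was not tested. With a replicate block, 263 and 71 genes had p under 0.05 and 0 passed the adjusted threshold.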
